A study of Mus musculus with 30 samples.

Results

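Salivary glands of female NOD.H-2h4 mice that had been given anti-CD40L antibody were compared at week 24 and at week 8 of age, with 5 arrays at each age. The 10 arrays were chosen by their labels, out of 30 arrays in the series. The same ages in mice given a human IgG1 isotype control antibody, 5 arrays at week 24 and 5 at week 8, served to show what happened with age in control glands. All mice, of both treatments, had received 1 intraperitoneal injection of their antibody at 20 mg/kg when 4 weeks old, so every group carries an injected antibody and no group is untreated. The labels call the arrays of a group biological replicates and do not say whether each came from a single animal. Where they did not, the p values measure only the spread between these arrays. Labelled cRNA from total RNA of the whole gland was measured on Affymetrix Mouse Genome 430 2.0 arrays, and the number of arrays limits the precision. Of 18194 genes with a probe set of their own, each was read from the one of its probe sets whose mean was highest across all 30 arrays, and 12999 genes above the array median in at least 5 arrays were tested.

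Activated T cells display CD40L, whose receptor CD40 sits on B cells and on other cells that present antigen, and contact between them drives germinal centre formation and switching of antibody class. NOD.H-2h4 mice are a strain prone to autoimmune thyroiditis and to inflammation of the salivary glands, in which B and T cells gather in the gland with age. The normal gland also holds plasma cells that make IgA, which the epithelium carries into saliva. Acinar cells make the bulk of saliva protein, granular ducts of the submandibular gland make kallikreins and growth factors, and myoepithelial cells squeeze the acini.

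Values below are levels on the log2 scale, and changes are week 24 minus week 8 with their standard error from a linear model of all 30 arrays. The error of a gene pools its spread over all 6 groups, so it can differ from the spread of the groups compared. Genes of the tissue were present at both ages. Aqp5, the acinar water channel, lay between 11.46 and 12.02 at week 24 and between 11.61 and 11.90 at week 8. Klk1, a duct kallikrein, lay between 14.14 and 14.23 at week 24 and between 14.07 and 14.16 at week 8.

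The arrays of the 2 ages differed in ways other than age, in the amount of parotid RNA, in other gland products and in an RNA measure. Amy1, the parotid amylase, was at 7.34, 13.43, 10.65, 7.65 and 13.07 in week 24 replicates 1 to 5, and between 13.18 and 13.70 in all week 8 arrays. The mean difference was -2.99, with p = 0.0397 in a two-sided exact permutation test and 0.0397 after adjustment over 2 such measures. Over the 10 parotid genes tested the mean level per array ran from 8.46 to 11.56 at week 24 and from 10.78 to 11.60 at week 8, and 0 of the 10 passed the gene-wise test. Smr3a, Cst10, Dnase1 and Bpifa2, which encode products of parotid or sublingual acini, were lowest in the same week 24 replicates, 1 and 4. Dcpp1, a sublingual product, was also low in these 2 arrays, at 9.79 and 8.77, as was Ltf, at 5.80 and 5.18. In control week 24 arrays Amy1 went down to 7.01, yet Dcpp1 stayed at 13.255 or above. In anti-CD40L week 16 arrays Amy1 went down to 7.34 and Dcpp1 stayed at 13.47 or above. Amy1 as a covariate may therefore not stand for this drop. What sets these 2 arrays apart was not tested. The difference between the 3' and 5' control probe sets of Gapdh and beta-actin, which grows as RNA is broken or copied incompletely, averaged 0.20 (0.1645 to 0.2485) at week 24 and 0.369 (0.2575 to 0.516) at week 8. The ages did not overlap in it (two-sided exact permutation p = 0.00794, the smallest that 5 against 5 can give, and 0.0159 adjusted over the 2 measures). Of the 10 arrays, week 8 replicates 1 and 3 also had the lowest median correlation with the other arrays of the whole series, at 0.9718 and 0.9719. Control week 8 replicates 4 and 3 and control week 24 replicate 1 were lower still, at 0.9527, 0.9669 and 0.9686. The 3' minus 5' difference ran from 0.359 to 0.8585 in control week 8 arrays and from 0.2865 to 0.6095 in control week 24 arrays. Amy1 ran from 6.575 to 13.605 in control week 8 arrays. How much each of these measures contributes to the changes below was not tested. Counts of list members called with each measure as a covariate, or without the arrays concerned, are given beside the lists.

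**Figure D1:**
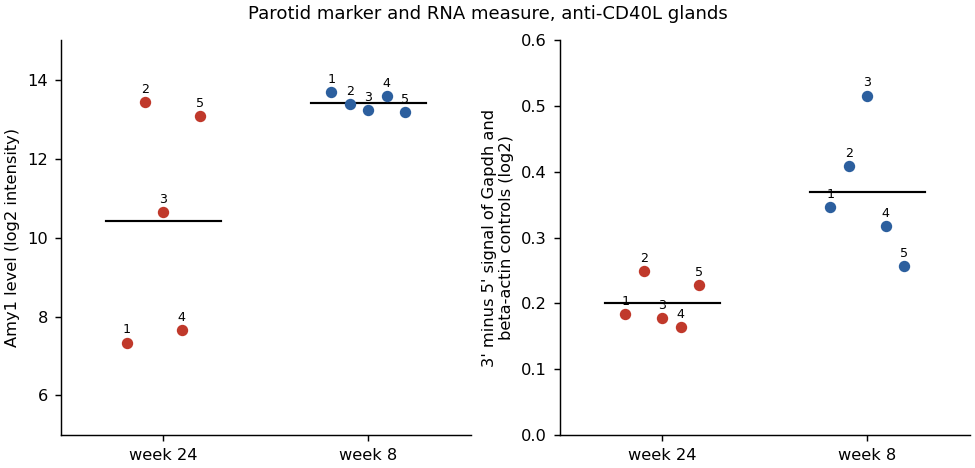
Log2 level of the parotid gene Amy1 (left) and log2 difference between 3' and 5' control probe sets (right) in anti-CD40L glands, 1 point per array with its replicate number, and a bar at the mean of 5 arrays. Week 24 replicates 1 and 4 have the lowest Amy1, and the 2 ages do not overlap in the RNA measure.

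The target pair showed no change that passed the test. Cd40lg, the gene of CD40L (chromosome X, 57212143 to 57224042, GRCm38.p6), was between 4.52 and 4.98 at week 24 and between 4.58 and 5.28 at week 8, which is below the filter, so it was not tested. Cd40, the receptor gene (chromosome 2, 165055614 to 165071654), was at 6.57, 6.25, 5.67, 6.09 and 5.86 at week 24 and at 6.55, 6.12, 6.76, 6.60 and 6.29 at week 8. The ages overlapped, and the change of -0.38 ± 0.16 had an adjusted p of 0.0763 in limma.

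Between week 8 and week 24, 3074 of the 12999 genes passed an adjusted p of 0.05 in anti-CD40L glands, which is 23.6% of those tested. Of these, 2148 (16.5% of those tested) were higher at week 24 and 926 (7.12%) were lower. In control glands 1624 genes (12.5%) passed, 1103 (8.49%) higher and 521 (4.01%) lower. Control counts beside the lists below are to be read against these control shares. With Amy1 as a covariate the counts were 1412 in anti-CD40L glands and 1430 in control glands, with the 3' minus 5' difference 633 and 715, and with both 594 and 669. The larger count in anti-CD40L glands therefore did not hold with these covariates. Leaving out 1 array moved the control count between 721 (without week 24 replicate 2) and 3230 (without week 24 replicate 1). Fitted from the compared arrays of each treatment alone, 3099 anti-CD40L and 41 control genes passed. The control count thus also depends on a spread shared over all 6 groups. The 2 comparisons share no arrays, and 935 genes passed in both in the same direction, 30.4% of the anti-CD40L calls and 57.6% of the control calls, against 0 in opposite directions. The change itself was tested for a difference between the treatments, and 1 gene (0.00769%) passed, Prg2.

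The direction of the 3074 calls depended on how arrays were scaled. The median change of all genes was 0.094 as deposited and -0.018 after quantile normalization, which gave 1234 higher and 1647 lower genes (22.2% of genes called, 9.49% higher and 12.7% lower). Small changes should be read against that shift. The 1412 calls with Amy1 as a covariate were 10.9% of genes (7.73% higher and 3.13% lower), the 633 with the 3' minus 5' difference 4.87% (3.44% higher and 1.43% lower), and the 594 with both 4.57% (3.19% higher and 1.38% lower). From the 2 week 24 arrays of high Amy1 alone, 401 passed (3.08%, 2.26% higher and 0.823% lower), and without week 8 replicates 1 and 3, 153 passed (1.18%, 0.939% higher and 0.238% lower). Left out alone, week 8 replicate 1 took the count to 1381 and replicate 3 to 1516. A set of 100 genes, 80 higher and 20 lower, passed as deposited and in each of 5 settings: Amy1 as a covariate, the 3' minus 5' difference as a covariate, both, the arrays of high Amy1, and week 8 replicates 1 and 3 left out. Below, these are called the 5 settings.

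Antibody genes had the largest rises among genes of anti-CD40L glands. Of 10 immunoglobulin genes tested, 7 rose and 0 fell, with a median change of 1.82 against 0.094 over all genes. In control glands 9 rose and 0 fell, with a median of 2.75. In anti-CD40L glands 7 of the 10 rose with Amy1 as a covariate, and with the 3' minus 5' difference 5. Igha, the heavy chain of IgA (chromosome 12, 113256204 to 113260236), was at 12.36, 13.18, 13.24, 12.77 and 12.88 at week 24, against 9.23, 9.32, 8.22, 9.07 and 8.96 at week 8. Every week 24 array stood above every week 8 array, and the change was 3.93 ± 0.27 (15.2-fold, adjusted p = 1.15e-10). Jchain, which joins IgA into dimers, was at 9.70, 11.47, 11.30, 10.48 and 10.90 at week 24 and at 7.34, 7.45, 7.30, 7.43 and 6.72 at week 8. Its change of 3.52 ± 0.34 (adjusted p = 1.53e-07) also left no overlap between the ages. Among light chains, Igkv8-30 rose by 3.80 ± 0.29, Igk by 2.10 ± 0.23, Iglv1 by 2.25 ± 0.50, Igkv6-20 by 1.53 ± 0.53 and Igkv6-14 by 1.38 ± 0.45. The Igkv8-30 probe set carries the suffix x_at, by which the array maker marks probes that can also bind other transcripts, so its signal may be shared with related variable genes. Igha, Jchain, Igk and Igkv8-30 are among the 100 genes that passed in the 5 settings. Igkv6-20, Igkv6-14 and Iglv1 did not pass without week 8 replicates 1 and 3, and the first pair also lost their calls without single arrays of either age (adjusted p up to 0.0952). All week 8 levels of Igkv6-20 (3.83 to 4.13) lay below the array medians that set the filter, as did week 24 replicates 1 and 4 (4.89 and 5.26). It passed the filter only with arrays of other groups counted.

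The changes of the IgM and IgG3 heavy chains did not pass the test. Ighm, the heavy chain of IgM, was at 7.76, 11.16, 7.78, 9.60 and 7.60 at week 24 and at 8.26, 7.65, 7.95, 8.64 and 7.65 at week 8. Week 24 replicates 2 and 4 were above all week 8 arrays and the other three were not. The change was 0.75 ± 0.77 (adjusted p = 0.476), against 3.66 ± 0.77 (adjusted p = 0.00387) in control glands. Of its 10 other probe sets 3 moved the opposite way. Ighg3, an IgG heavy chain, was between 5.99 and 6.22 at week 24 and between 6.10 and 6.88 at week 8, a change of -0.27 ± 0.41 (adjusted p = 0.645), against 2.06 ± 0.41 (adjusted p = 0.00258) in control glands; its 3 other probe sets moved the opposite way. The test of the difference between treatments did not pass for Ighm (-2.91 ± 1.09, adjusted p = 0.663) or Ighg3 (-2.32 ± 0.58, adjusted p = 0.272).

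**Figure D2:**
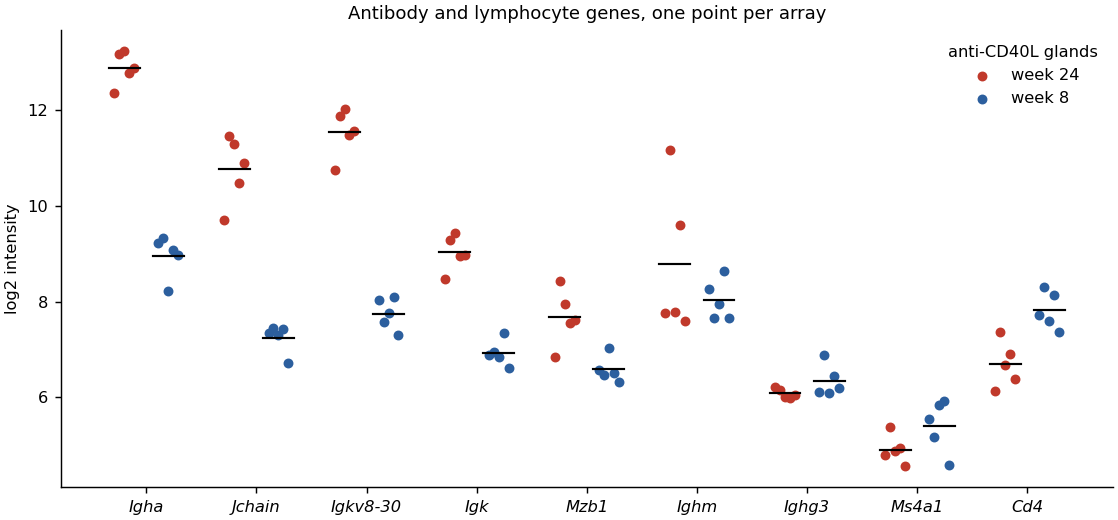
Log2 levels of antibody, plasma cell, B cell and T cell genes in anti-CD40L glands, 1 point per array, week 24 left of week 8 for each gene, with bars at the mean of 5 arrays. Levels of different genes come from different probes and are not comparable. Igha, Jchain, Igkv8-30 and Igk separate the ages, while Ighm, Ighg3 and Ms4a1 overlap and most week 24 arrays lie below the week 8 arrays for Cd4.

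Plasma cell genes moved less than the antibody genes. Of 13 tested, 2 rose and 0 fell (control glands, 5 and 0), a share no larger than the 16.5% over all genes. With either covariate 1 of the 13 rose, Mzb1. Mzb1, a chaperone of antibody assembly, was at 6.84, 8.43, 7.94, 7.56 and 7.62 at week 24 and at 6.57, 6.47, 7.03, 6.52 and 6.33 at week 8, and rose by 1.09 ± 0.34 (adjusted p = 0.024). All week 24 arrays but replicate 1 stood above all week 8 arrays. Sdc1, the plasma cell and epithelial surface proteoglycan, rose by 0.54 ± 0.18 (adjusted p = 0.0305). Neither passed without week 8 replicate 1, nor without some other single arrays (adjusted p up to 0.082). Tnfrsf13b, a receptor for B cell survival factors, changed by 0.34 ± 0.21 (adjusted p = 0.218), against 1.77 ± 0.21 in control glands. Pigr, the receptor that carries IgA across the epithelium, changed by 0.38 ± 0.22 (adjusted p = 0.197).

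B cell genes did not move together. Of 14 tested, 1 rose and 1 fell, against 16.5% and 7.12% over all genes. Ebf1, a transcription factor of early B cells, rose by 0.52 ± 0.14 and Blk, a B cell kinase, fell by 0.64 ± 0.19. Both calls were lost without week 8 replicate 1 (adjusted p up to 0.0758). Of the 14, 1 rose with Amy1 as a covariate, and with the 3' minus 5' difference 0. Blnk changed by 0.587 ± 0.245 and did not pass (limma adjusted p = 0.0772), although every week 24 array stood above every week 8 array. Its change in control glands was 1.08 ± 0.245. The median change was -0.10, and in control glands 12 of the 14 rose, with a median of 1.17. The mean level over the 14 genes ran from 5.62 to 5.96 per array at week 24 and from 5.58 to 5.92 at week 8. Ms4a1, the CD20 gene, was at 4.78, 5.38, 4.87, 4.93 and 4.56 at week 24 and at 5.55, 5.16, 5.83, 5.91 and 4.58 at week 8. It changed by -0.50 ± 0.59 (adjusted p = 0.538), against 2.85 ± 0.59 (adjusted p = 0.00337) in control glands. Cd79a, part of the B cell receptor, changed by -0.15 ± 0.23 (adjusted p = 0.648), against 1.27 ± 0.23 in control glands. For both, the difference between treatments missed the threshold (adjusted p = 0.272 and 0.113). In whole gland, fewer cells of a type and less RNA per cell cannot be told apart.

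T cell genes gave 0 rises and 2 falls among 12 tested, against 16.5% and 7.12% over all genes (control glands, 5 rises and 0 falls). Cd4 alone fell with Amy1 as a covariate, and 0 genes did with the 3' minus 5' difference. Cd4, the T helper coreceptor, was at 6.13, 7.36, 6.68, 6.90 and 6.38 at week 24, against 7.72, 8.30, 7.60, 8.14 and 7.36 at week 8. Only week 24 replicate 2 reached the level of a week 8 array. Cd4 fell by 1.13 ± 0.29 (adjusted p = 0.00876), although its other probe set changed by 0.01, and without week 8 replicates 1 and 3 the adjusted p was 0.0723. Cd6, a T cell adhesion receptor, fell by 0.39 ± 0.14 (adjusted p = 0.0387), a call lost without either of those week 8 arrays or without week 24 replicate 1, 4 or 5 (adjusted p up to 0.121). Cd3e, part of the T cell receptor complex, changed by -0.46 ± 0.25 (adjusted p = 0.166). The mean over the 12 genes ran from 5.64 to 6.30 at week 24 and from 5.95 to 6.35 at week 8.

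Prg2, the major basic protein of eosinophil granules (chromosome 2, 84980461 to 84983632), was the 1 gene that passed the test of the difference between treatments. Except in week 24 replicate 3, its anti-CD40L levels lay below the array medians (5.487 to 5.537) that set the filter. It was tested only because control arrays were above them, and the same control arrays enter the difference. In anti-CD40L glands Prg2 was at 4.52, 5.10, 5.62, 4.64 and 4.69 at week 24 and at 3.75, 3.94, 3.98, 3.76 and 4.09 at week 8. The ages did not overlap and the change was 1.01 ± 0.22 (adjusted p = 0.00331, and 0.0588 without week 8 replicates 1 and 3). In control glands it averaged 6.75 ± 0.55 at week 24 and 3.90 ± 0.18 at week 8 (SD, n = 5 each), a change of 2.85 ± 0.22. The anti-CD40L change was smaller by 1.84 ± 0.31 on the log2 scale (limma adjusted p = 0.0302). This call was lost on leaving out any of 8 of the 10 anti-CD40L arrays or 4 of the 10 control arrays (adjusted p up to 0.107), with array weights (0.114), with both covariates (0.0579), with a replicate block (0.0522) and in a fit of the compared arrays alone (0.0505). Under the stricter filter Prg2 was not tested. The difference itself stayed between -2.02 and -1.69 without any 1 array. It was the only one of 6 tested mast cell and eosinophil genes that passed. Kit, the stem cell factor receptor of mast cells, changed by 0.52 ± 0.23 (adjusted p = 0.0888).

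Close to that threshold lay genes that moved in one treatment. Slpi, a secreted protease inhibitor, averaged 8.74 ± 0.59 at week 24 and 8.49 ± 0.35 at week 8 in anti-CD40L glands and 10.81 ± 0.12 at week 24 and 8.59 ± 0.44 at week 8 in control glands (SD, n = 5 each). Vasn, a membrane protein that binds TGF-beta, rose by 1.15 ± 0.13 in anti-CD40L glands (adjusted p = 3.19e-06), against 0.19 ± 0.13 in control glands. Dusp6, the phosphatase that switches off ERK, was at 10.82, 10.91, 11.09, 10.64 and 10.64 at week 24 and at 9.97, 9.84, 9.54, 9.80 and 9.41 at week 8. It rose by 1.11 ± 0.14 without overlap (adjusted p = 1.98e-05), against 0.15 ± 0.14 in control glands. The differences between treatments had adjusted p = 0.0791 for Slpi and Vasn and 0.0959 for Dusp6. Vasn and Dusp6 passed the age comparison in the 5 settings.

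**Figure D3:**
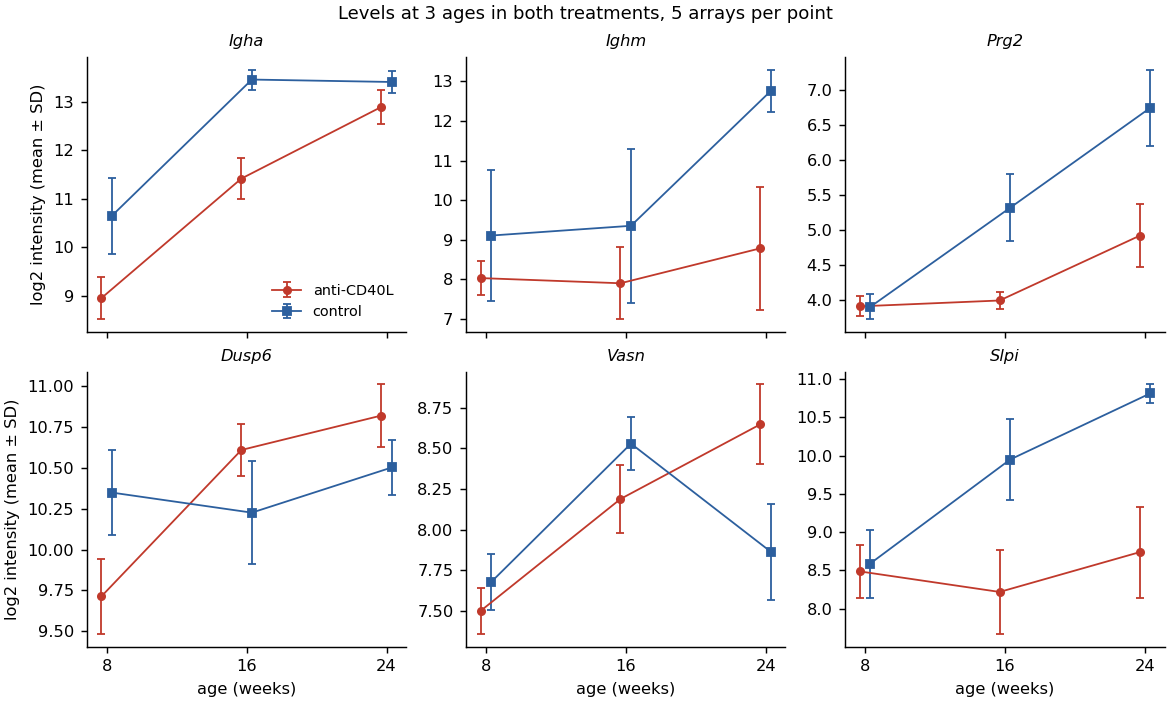
Mean log2 level ± SD of 6 genes at weeks 8, 16 and 24 in anti-CD40L glands (circles) and control glands (squares), 5 arrays per point. Igha rises at each age in anti-CD40L glands and is level between weeks 16 and 24 in control glands. Prg2 and Slpi separate the treatments from week 16, and control Vasn is highest at week 16.

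Levels at week 16 place the Igha rise in time. Igha averaged 8.96 ± 0.44, 11.42 ± 0.42 and 12.89 ± 0.35 at weeks 8, 16 and 24 in anti-CD40L glands, and 10.65 ± 0.78, 13.45 ± 0.21 and 13.40 ± 0.23 in control glands (SD, n = 5 each). Prg2 averaged 3.91 ± 0.15, 3.99 ± 0.12 and 4.92 ± 0.45 in anti-CD40L glands and 3.90 ± 0.18, 5.32 ± 0.48 and 6.75 ± 0.55 in control glands. Dusp6 averaged 9.71 ± 0.23, 10.61 ± 0.16 and 10.82 ± 0.19 in anti-CD40L glands and 10.35 ± 0.26, 10.23 ± 0.31 and 10.50 ± 0.17 in control glands. The week 16 values are given as levels and were not tested.

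Antigen presentation and interferon genes gave few calls. Of 9 MHC class II genes 0 passed in anti-CD40L glands (8 rose in control glands), although the median change was 0.45. H2-Ab1, a class II chain, was at 8.91, 10.15, 9.20, 9.0 and 8.53 at week 24 and at 8.32, 7.90, 8.11, 8.40 and 8.22 at week 8. The ages did not overlap, yet the change of 0.97 ± 0.41 had an adjusted p of 0.0822 in limma. That error includes the control groups, whose SD of H2-Ab1 was 0.875 at week 8 and 1.04 at week 16. In anti-CD40L glands the SD was 0.194 at week 8 and 0.606 at week 24. Cd74, the invariant chain, changed by 0.81 ± 0.38 (adjusted p = 0.118) and H2-Aa by 0.79 ± 0.38 (adjusted p = 0.123). Of 13 MHC class I and antigen processing genes and 13 interferon gamma response genes 0 passed (control glands, 6 and 3 rose). Of 22 type I interferon genes, Rsad2, an antiviral enzyme, rose by 0.94 ± 0.19 (adjusted p = 0.0023), and 7 rose in control glands. Oasl2 had the largest change of that list, 1.51 ± 0.60, with an adjusted p of 0.0644. Of 22 macrophage and dendritic cell genes, Cd14, the endotoxin coreceptor, rose by 0.47 ± 0.12 and Cd209a, a dendritic cell lectin, by 0.72 ± 0.24 (control glands, 9 rose). Of 10 complement genes, C1s1 and C1ra, the proteases of the first component, rose by 1.02 ± 0.34 and 0.83 ± 0.23, and Cd59a, a membrane inhibitor of complement, by 0.33 ± 0.10 (control glands, 7 rose). Of 10 CD40 and NF-kB response genes, Relb, an NF-kB subunit, rose by 0.56 ± 0.17 and Birc3, an inhibitor of apoptosis, by 0.49 ± 0.15 (control glands, 5 rose). The share that rose was below the 16.5% over all genes in each of these lists except complement and the CD40 and NF-kB response. With Amy1 as a covariate 3 macrophage and dendritic cell genes, 2 complement genes, 2 CD40 and NF-kB genes and 1 type I interferon gene rose. With the 3' minus 5' difference 1 complement and 1 type I interferon gene rose and 0 of the other lists. Without week 8 replicates 1 and 3, 0 of them passed, and Relb, Birc3 and Cd59a were lost without replicate 1 alone, C1s1 and Cd209a without several single arrays (adjusted p up to 0.0998). No member passed the test of the difference between treatments.

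**Figure D4:**
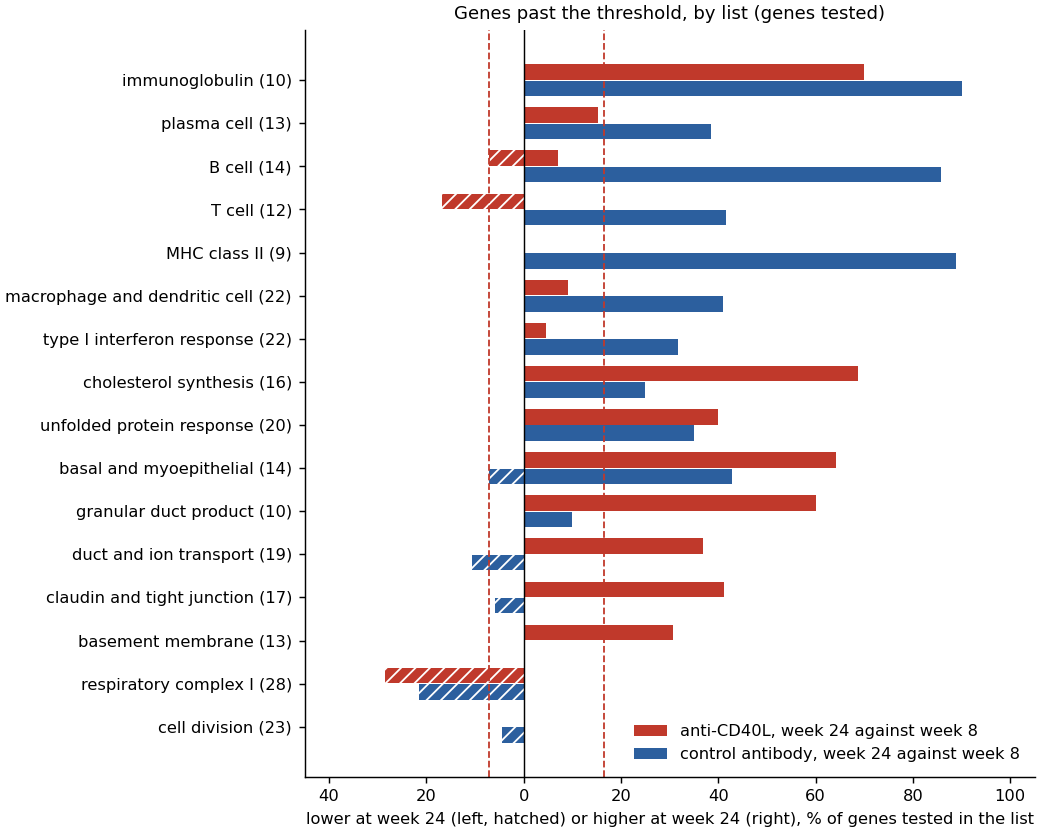
Share of the tested genes of 16 lists that passed the threshold at week 24 against week 8, higher to the right and lower to the left (hatched), in anti-CD40L glands (upper bar of each pair) and control glands (lower bar). Dashed lines mark the shares over all genes in anti-CD40L glands, 16.5% higher and 7.12% lower. The control shares, 8.49% higher and 4.01% lower, are not marked. Immunoglobulin, cholesterol synthesis, basal and myoepithelial and granular duct lists reach farthest to the right in anti-CD40L glands. In control glands the immunoglobulin, MHC class II and B cell lists reach farthest.

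Genes of cholesterol synthesis rose together. Of 16 tested, 11 rose and 0 fell, against 16.5% and 7.12% over all genes. The median change was 0.75 (control glands, 4 and 0, median 0.37). Cyp51, the sterol demethylase, was at 7.17, 8.37, 7.26, 7.14 and 8.44 at week 24, against 5.99, 6.61, 6.56, 6.18 and 6.90 at week 8. Every week 24 array was above every week 8 array, and the change was 1.23 ± 0.27 (adjusted p = 0.00391). Week 24 replicates 2 and 5, those of high Amy1, were the highest. Fdft1, which makes squalene, rose by 1.07 ± 0.28, although 2 of its 3 other probe sets moved the opposite way. Fdps, which makes farnesyl diphosphate, rose by 1.04 ± 0.22, although its only other probe set changed by -0.12. Sqle, squalene epoxidase, rose by 0.90 ± 0.21, and Hmgcs1, the first committed step before HMG-CoA reductase, by 0.89 ± 0.18, with 1 of 4 other Hmgcs1 probe sets moving the opposite way. With Amy1 as a covariate 11 of the 16 passed, with the 3' minus 5' difference 4, from the arrays of high Amy1 alone 12, and without week 8 replicates 1 and 3, 1. That 1 was Sc5d, the sterol desaturase, at 8.86, 9.04, 8.71, 8.83 and 9.02 at week 24 and at 8.16, 8.23, 8.21, 8.03 and 8.22 at week 8 (0.72 ± 0.11, adjusted p = 0.00026), although 1 of its 2 other probe sets moved the opposite way. No member passed the test of the difference between treatments.

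Chaperone genes of the endoplasmic reticulum were among those that rose. The unfolded protein response is a set of transcription programmes that raise chaperones when the secretory load of the endoplasmic reticulum grows, and secretory gland cells and plasma cells both use it. Of 20 genes tested, 8 rose and 0 fell, against 16.5% and 7.12% over all genes. The median change was 0.23 (control glands, 7 and 0, median 0.22). Pdia4, a disulphide isomerase, was at 8.88, 9.18, 8.97, 8.71 and 9.05 at week 24 and at 7.86, 8.43, 7.98, 7.99 and 8.21 at week 8, without overlap (0.86 ± 0.17, adjusted p = 0.00202). Its other probe set moved the opposite way, by -0.25. Sel1l, of the degradation complex, rose by 0.82 ± 0.19, Pdia6 by 0.63 ± 0.14, Dnajb9, a cochaperone, by 0.59 ± 0.14, Calr, the chaperone calreticulin, by 0.54 ± 0.11, Dnajc3, a cochaperone, by 0.53 ± 0.10, Hyou1, a chaperone, by 0.52 ± 0.13, and Hspa5, the chaperone BiP, by 0.26 ± 0.08. With Amy1 as a covariate 7 of the 20 rose, with the 3' minus 5' difference 4 rose and 1 fell, and without week 8 replicates 1 and 3, 1 rose, Dnajb9. Hspa5 was lost without replicate 1 alone (adjusted p = 0.0743). Ddit3 and Atf4, transcription factors of the stress arm of this response, changed by 0.06 ± 0.11 and 0.04 ± 0.09 and did not pass.

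The promoters of this list were searched for the endoplasmic reticulum stress element, which is CCAAT, any 9 bases and CCACG, on either strand in the 250 bases before the start site. RefSeq windows of build GRCm38.p6 were found for 18 of the 20 genes, and 7 of the 18 held the motif, against 0.13% of 27025 gene symbols and 0.113% of 32851 windows. The list and the motif were both chosen as known parts of this response, so the higher share follows from that choice. It is no result about the genes that rose here. Of the 7 that rose and had a window, 4 held the motif, and these 4 are printed 5' to 3' on the strand of the gene with the motif in capitals. Hspa5 lies on the plus strand (chr2:34771840-34772089), Calr on the minus strand (chr8:84846932-84847181, with the motif in reverse), Pdia6 on the plus strand (chr12:17266339-17266588) and Dnajc3 on the plus strand (chr14:118937682-118937931).
Hspa5: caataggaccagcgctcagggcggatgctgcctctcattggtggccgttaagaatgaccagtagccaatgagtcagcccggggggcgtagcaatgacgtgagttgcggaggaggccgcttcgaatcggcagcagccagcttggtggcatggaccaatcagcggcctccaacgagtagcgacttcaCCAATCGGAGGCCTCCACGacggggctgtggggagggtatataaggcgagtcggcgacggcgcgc
Calr: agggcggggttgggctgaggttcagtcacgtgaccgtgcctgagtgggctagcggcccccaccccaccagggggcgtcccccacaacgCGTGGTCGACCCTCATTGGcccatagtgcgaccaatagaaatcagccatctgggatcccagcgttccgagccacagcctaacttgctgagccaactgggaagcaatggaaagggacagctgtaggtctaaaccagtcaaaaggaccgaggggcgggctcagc
Pdia6: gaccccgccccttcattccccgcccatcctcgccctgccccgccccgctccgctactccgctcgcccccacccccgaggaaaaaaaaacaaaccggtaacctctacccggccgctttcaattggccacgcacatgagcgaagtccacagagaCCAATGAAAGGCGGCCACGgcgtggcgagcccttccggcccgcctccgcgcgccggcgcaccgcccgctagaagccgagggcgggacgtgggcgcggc
Dnajc3: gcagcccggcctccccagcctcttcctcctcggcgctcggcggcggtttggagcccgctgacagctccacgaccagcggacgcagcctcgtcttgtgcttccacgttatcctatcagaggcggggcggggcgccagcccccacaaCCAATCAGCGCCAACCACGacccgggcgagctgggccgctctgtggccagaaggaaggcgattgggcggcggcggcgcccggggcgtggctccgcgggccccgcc
The motif ended 46 bases before the start site in Hspa5, 143 in Calr, 79 in Pdia6 and 86 in Dnajc3. Among the members without a call, Hsp90b1, Syvn1 and Creld2 held it too, with changes of 0.23 ± 0.09 (adjusted p = 0.0569), 0.11 ± 0.10 (adjusted p = 0.384) and 0.37 ± 0.22 (adjusted p = 0.205). The match describes the sequence and says nothing of binding.

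Contractile genes of myoepithelial cells rose. Of 14 basal and myoepithelial genes, 9 rose and 0 fell, against 16.5% and 7.12% over all genes. The median change was 0.56 (control glands, 6 rises and 1 fall, median 0.60). Mylk, myosin light chain kinase, was at 10.23, 10.26, 10.58, 10.13 and 10.55 at week 24 and at 8.74, 9.84, 8.87, 9.29 and 9.67 at week 8. Week 8 replicates 1 and 3 were the lowest of these, and the ages did not overlap (1.07 ± 0.19, adjusted p = 0.000861). Myh11, smooth muscle myosin, rose by 0.99 ± 0.30, Actg2, smooth muscle actin, by 0.96 ± 0.24, Cnn1, calponin, by 0.76 ± 0.23, and Smtn, smoothelin, by 0.76 ± 0.23. These proteins are also made by smooth muscle of vessels. Mylk passed in the 5 settings, 3 of the 14 with Amy1 as a covariate, and 2 with the 3' minus 5' difference. Myh11, Cnn1 and Smtn were lost without week 8 replicate 3 (adjusted p up to 0.0786), Myh11 also without week 8 replicate 1 or week 24 replicate 5, and Cnn1 also without week 24 replicate 3.

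Some duct genes rose in anti-CD40L glands. Of 19 duct and ion transport genes 7 rose and 0 fell, against 16.5% and 7.12% over all genes (control glands, 0 and 2). Foxi1, the transcription factor of ion-transporting cells rich in proton pumps, was at 8.58, 7.98, 8.51, 8.82 and 8.18 at week 24, against 6.75, 7.55, 7.0, 7.33 and 7.75 at week 8. All week 24 arrays were above all week 8 arrays, and the change was 1.14 ± 0.22 (adjusted p = 0.00185), against 0.16 ± 0.22 in control glands. Cftr, the chloride channel, was at 8.04, 6.57, 8.22, 8.40 and 7.89 at week 24 and at 5.60, 7.25, 6.83, 6.96 and 7.34 at week 8 (1.03 ± 0.32, adjusted p = 0.0218). Week 24 replicate 2 and week 8 replicate 1 stood apart from their groups, and the call was lost without week 8 replicate 1, or week 24 replicate 3 or 4 (adjusted p up to 0.0995). The other Cftr probe set did not rise. Tfcp2l1, a duct transcription factor, rose by 1.11 ± 0.30 (1 of its 2 other probe sets moved the opposite way), Atp6v0d2, a proton pump subunit, by 0.73 ± 0.24, and the sodium channel subunits Scnn1g, Scnn1b and Scnn1a by 0.82 ± 0.20, 0.52 ± 0.16 and 0.50 ± 0.13. With Amy1 as a covariate 3 of the 19 rose, with the 3' minus 5' difference 1, and without week 8 replicates 1 and 3, 0. Atp6v0d2 and Scnn1b were also lost without single arrays of either age (adjusted p up to 0.107). The difference between treatments did not pass for Foxi1 (0.98 ± 0.31, adjusted p = 0.563).

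Products of the granular ducts rose by small amounts. Of 10 tested, 6 rose and 0 fell, against 16.5% and 7.12% over all genes (control glands, 1 and 0). The median change was 0.41 in anti-CD40L glands and 0.30 in control glands, where all 10 changes were also above 0. No member passed the test of the difference between treatments. Klk1b24, a kallikrein, was at 12.74, 11.89, 12.50, 12.74 and 12.54 at week 24 and at 11.46, 11.66, 11.73, 11.54 and 11.91 at week 8 (0.82 ± 0.18, adjusted p = 0.00349). Week 24 replicate 2 was the single array of that age within the week 8 range. Klk1b1 rose by 0.68 ± 0.19, Klk1b21 by 0.45 ± 0.13, Klk1b16 by 0.38 ± 0.11 and Klk1b11 by 0.31 ± 0.09. The kallikrein genes are near-identical copies, so a probe set of one may read others. Egf, epidermal growth factor, rose by 0.53 ± 0.14 (adjusted p = 0.0114). These products belong to the submandibular gland. With Amy1 as a covariate 2 of the 10 passed, and with the 3' minus 5' difference 0. Whether gland content or RNA quality plays a part in these rises was not tested. Klk1b1, Klk1b21, Klk1b16, Klk1b11 and Egf lost their calls without week 8 replicate 1 (adjusted p up to 0.0602).

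Acinar genes were mixed, with 1 rise and 2 falls among 19 (control glands, 1 and 2), against 16.5% higher and 7.12% lower over all genes. With either covariate there were 1 rise and 1 fall. Smgc, a mucin-like product of the developing gland (chromosome 15, 91838328 to 91861435), was at 11.59, 11.30, 11.69, 12.11 and 12.06 at week 24, against 12.45, 12.66, 12.79, 12.55 and 12.91 at week 8. It fell by 0.92 ± 0.15 without overlap and in the 5 settings (adjusted p = 0.000537), and by 1.15 ± 0.15 in control glands. Dcpp1, a sublingual acinar product, was at 9.79, 13.43, 13.59, 8.77 and 13.67 at week 24 and between 13.53 and 13.73 at week 8. Replicates 1 and 4 were the low arrays behind its fall of 1.78 ± 0.57 (adjusted p = 0.0266), which was lost without either of them or without week 8 replicate 1 or 3 (adjusted p up to 0.0989), and from the arrays of high Amy1 the change was -0.08. Dcpp3, a close relative, was low in the same arrays, at 8.61 and 7.96, and between 10.96 and 12.21 at week 8. Muc13, a membrane mucin, rose by 0.86 ± 0.19 (adjusted p = 0.00323).

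**Figure D5:**
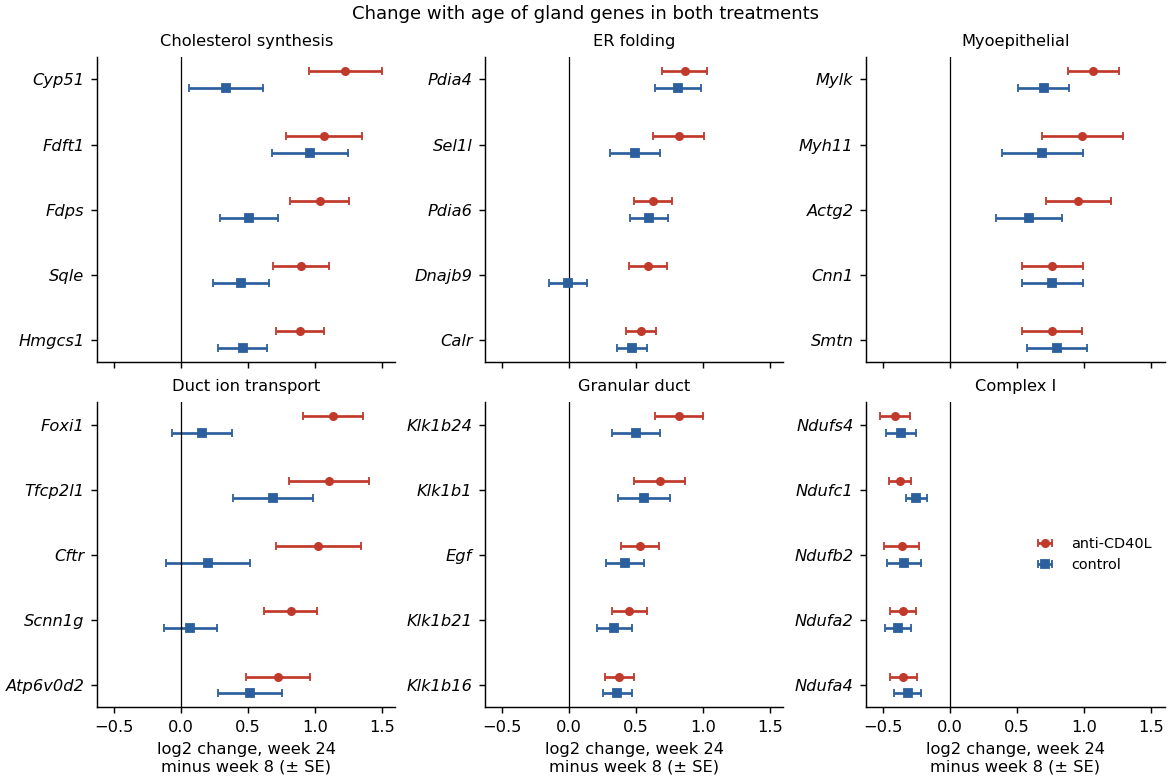
Log2 change at week 24 against week 8 (± SE, 5 arrays per group) of the leading called genes of 6 lists in anti-CD40L glands (circles, upper of each pair) and control glands (squares, lower). Cholesterol synthesis, duct and myoepithelial genes lie to the right of 0 in anti-CD40L glands, complex I genes lie to the left in both, and no gene shown passed the test of the difference.

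Some junction and basement membrane genes rose by small amounts. Of 17 claudin and tight junction genes 7 rose and 0 fell, with a median change of 0.23 (control glands, 0 and 1, median 0.15). Cldn4, a claudin of ducts, rose by 0.66 ± 0.16, Tjp3 by 0.56 ± 0.17, Ocln, occludin, by 0.55 ± 0.12, Tjp1 by 0.49 ± 0.17 and Marveld2, tricellulin, by 0.46 ± 0.16. Of 13 basement membrane genes 4 rose and 0 fell (control glands, 0 and 0), among them Nid1, nidogen, by 0.73 ± 0.17, Lama4 and Lamc1, laminin chains, by 0.68 ± 0.21 and 0.64 ± 0.18, and Col18a1 by 0.50 ± 0.13. Fibroblast and matrix genes gave 4 rises and 1 fall among 24, a share of rises about that of all genes (16.5%). Pdgfra, a growth factor receptor, rose by 0.81 ± 0.16, Col15a1 by 0.53 ± 0.17, Postn by 0.45 ± 0.16 and Dcn by 0.30 ± 0.10, and Eln, elastin, fell by 0.41 ± 0.14. Of 19 Wnt, Notch and Hedgehog genes 6 rose and 0 fell (control glands, 3 and 0), led by Sfrp2, a Wnt inhibitor, at 0.72 ± 0.22, Notch1 at 0.52 ± 0.15, Wnt4 at 0.50 ± 0.15, Lgr4, an R-spondin receptor, at 0.44 ± 0.11, and Notch3 at 0.43 ± 0.15. Without week 8 replicates 1 and 3, 0 genes of these 4 lists passed. For the junction, basement membrane, fibroblast and Wnt lists in that order, 4, 3, 1 and 2 genes rose after quantile normalization, 2, 4, 1 and 1 with Amy1 as a covariate, and 1 of each with the 3' minus 5' difference. The only other probe set moved the opposite way for Notch1 (-0.02) and Lgr4 (-0.08). Leaving out single arrays, most often week 8 replicate 1 or 3, ended the calls of Tjp3, Tjp1, Marveld2, Lama4, Lamc1, Col15a1, Postn, Dcn, Eln, Sfrp2, Notch1, Wnt4 and Notch3 (adjusted p up to 0.179).

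Of 20 immediate early and MAPK phosphatase genes 3 rose and 3 fell (control glands, 0 and 0), against 16.5% and 7.12% over all genes. There were 2 rises and 2 falls with Amy1 as a covariate, and with the 3' minus 5' difference 1 and 1. Dusp1, a phosphatase of stress kinases, was at 8.61, 7.91, 8.28, 10.69 and 8.16 at week 24, against 10.24, 11.09, 10.32, 10.91 and 10.42 at week 8. Week 24 replicate 4 alone lay within the week 8 range, and Dusp1 fell by 1.87 ± 0.52 (adjusted p = 0.0137). Egr3, a growth-induced transcription factor, fell by 0.43 ± 0.16 and Dusp2, a nuclear MAPK phosphatase, by 0.40 ± 0.11. Egr1, a growth-induced transcription factor, rose by 1.01 ± 0.36, Fosl2, a Fos family member, by 0.87 ± 0.22, and Dusp6 as given above. The only other probe set moved the opposite way for Fosl2 (-0.28) and Egr3 (0.06). Clock output genes gave 4 rises among 14 (control glands, 8), 2 with Amy1 as a covariate and 1 with the 3' minus 5' difference. Usp2, a deubiquitinase, rose by 1.74 ± 0.54, Bhlhe40, a repressor, by 0.91 ± 0.23, Wee1, a cell cycle kinase, by 0.61 ± 0.15 and Nr1d2, a nuclear receptor repressor, by 0.48 ± 0.15. Among 6 clock activators Clock rose by 0.74 ± 0.24, although 1 of its 3 other probe sets moved the opposite way. Without week 8 replicates 1 and 3 only Dusp6 of these lists passed, and Egr1, Egr3, Usp2, Nr1d2 and Clock were lost on leaving out replicate 1, and all but Nr1d2 on leaving out other single arrays too (adjusted p up to 0.128). The labels do not give the hour at which glands were taken, so time of day and age cannot be told apart for these genes.

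Some respiratory complex I genes fell. Of 28 tested, 8 fell and 0 rose, against 7.12% and 16.5% over all genes. The median change was -0.16 (control glands, 6 falls and 0 rises, median -0.15). Ndufc1 was at 11.68, 11.85, 11.72, 11.68 and 11.72 at week 24 and at 12.31, 12.08, 12.26, 11.94 and 11.94 at week 8. The ages did not overlap, and it fell by 0.38 ± 0.08 (adjusted p = 0.00317). Ndufs4 fell by 0.41 ± 0.11, Ndufb2 by 0.36 ± 0.13, and Ndufa2 and Ndufa4 by 0.35 ± 0.10 each. Of the 28, 4 fell with Amy1 as a covariate (3.13% over all genes). With the 3' minus 5' difference 1 fell (1.43% over all genes), and without week 8 replicates 1 and 3, 0. Ndufs4 and Ndufa4 were lost without replicate 3 alone, Ndufa2 without replicate 1, and Ndufb2 without either or several week 24 arrays (adjusted p up to 0.139). Of 17 glutathione genes 4 rose by at most 0.46 ± 0.14 (Gclm, Txnrd1, Gsr and Gsto1), and 0 of the 17 rose with either covariate or after quantile normalization. Each of the 4 calls was also lost without week 24 replicate 4 (adjusted p up to 0.098 on leaving out any 1 array).

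Beyond the lists, the largest rises that the rule reaches were Fads6, named for its likeness to fatty acid desaturases, at 1.63 ± 0.27, Sgms2, a sphingomyelin synthase, at 1.45 ± 0.34, and Mkx, a homeobox factor of tendon, at 1.42 ± 0.16. Mkx was at 6.47, 6.47, 6.25, 6.74 and 6.81 at week 24 and at 4.88, 5.32, 4.85, 5.20 and 5.4 at week 8, without overlap (adjusted p = 3.19e-06). All of its week 8 levels lay below the array medians that set the filter. Fads6 and Mkx passed in the 5 settings, but the other Fads6 probe set moved the opposite way, by -0.17. Sgms2 was lost with the 3' minus 5' difference as a covariate. The largest fall was 5530400C23Rik, a gene with no role given here, at 4.01, 4.34, 4.73, 5.96 and 4.40 at week 24 and at 9.16, 8.43, 10.05, 8.55 and 9.40 at week 8. It fell by 4.43 ± 0.48 (21.6-fold, adjusted p = 1.68e-06) without overlap and in the 5 settings, and by 5.4 ± 0.48 in control glands. Except in replicate 4, its week 24 levels lay below the array medians (5.487 to 5.537) that set the filter, so the fold rests on low signals. Ttr, transthyretin, fell by 1.72 ± 0.57, Cyp2c38, a cytochrome P450, by 1.44 ± 0.51 and Krt13, a keratin of stratified epithelium, by 1.23 ± 0.43. Week 8 replicate 1 was the highest of its group in all 3, and each call was lost without it and without several other single arrays (adjusted p up to 0.17). Gm9222, Gm9112, Gm3715, Gm20740 and Speer8-ps1, predicted genes or a pseudogene, fell by 1.80, 1.72, 1.5, 1.26 and 1.36, and Bzw2, a translation regulator, by 1.24 ± 0.26. None of these 6 passed without week 8 replicates 1 and 3, and Gm9112, Gm3715, Gm20740 and Speer8-ps1 were also lost with the 3' minus 5' difference as a covariate. Ttr, Cyp2c38 and Krt13 were lost with either covariate.

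Among the 100 genes that passed in the 5 settings, the largest changes outside the rule, chosen after their values were seen, were as follows. Slc9a7, an organelle sodium and proton exchanger, rose by 1.33 ± 0.23, Procr, the endothelial protein C receptor, by 1.32 ± 0.18, Rdh11, a retinol dehydrogenase, by 1.30 ± 0.19, and Nkd1, a Wnt inhibitor, by 1.26 ± 0.17. Procr was at 7.24, 6.89, 6.64, 7.22 and 7.25 at week 24 and at 5.85, 5.90, 5.48, 5.54 and 5.88 at week 8. Among falls, Stom, stomatin, fell by 1.19 ± 0.20, but 3 of its 5 other probe sets moved the opposite way, and the median over its probe sets gave 0.11. Prm1, protamine, fell by 1.04 ± 0.16, Rpf2, a ribosome assembly factor, by 0.83 ± 0.13, Rpl27a, a ribosomal protein, by 0.77 ± 0.11, Clk1, a splicing kinase, by 0.75 ± 0.14, and Mthfd2, a mitochondrial folate enzyme, by 0.69 ± 0.17. Nkd1, Rpf2, Prm1 and Rpl27a had other probe sets that moved the opposite way, 2 of 3, 2 of 3, 1 of 2 and 1 of 1.

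The remaining lists gave 2 calls at most, against 16.5% higher and 7.12% lower over all genes. Of 14 endothelial genes Aqp1, a water channel, rose by 0.63 ± 0.16 and Pecam1 by 0.52 ± 0.18. Of 9 nerve genes Pmp22 and Mbp, myelin proteins, rose by 0.43 ± 0.15 and 0.42 ± 0.15. Of 13 imprinted growth genes Igf2r, a clearance receptor of IGF2, rose by 0.48 ± 0.17 and Peg3, a zinc finger protein, fell by 0.72 ± 0.19, although 2 of the 4 other Peg3 probe sets moved the opposite way. Zmat3, a p53 target, rose by 0.77 ± 0.18 among 12 senescence genes, and Scd1, a fatty acid desaturase, by 0.55 ± 0.18 among 12 adipocyte genes. Casq1, calsequestrin, fell by 0.60 ± 0.19 among 10 skeletal muscle genes, and Hspe1, a mitochondrial chaperonin, by 0.38 ± 0.09 among 13 heat shock genes. Of these genes 4 passed with Amy1 as a covariate and with the 3' minus 5' difference 0. Without week 8 replicates 1 and 3, 0 genes of these 7 lists passed, and Pecam1, Pmp22, Mbp, Igf2r, Scd1 and Casq1 were also lost without single arrays (adjusted p up to 0.153). Of 23 cell division genes 0 passed, although the median change was 0.33. Ccnb2, a mitotic cyclin, was at 5.55, 7.33, 5.97, 5.49 and 6.80 at week 24 and between 5.0 and 5.52 at week 8 (1.01 ± 0.42, adjusted p = 0.0772). The lists of 9 cytotoxic T and NK cell, 8 neutrophil, 9 lymphoid chemokine and vessel, 6 Sjogren autoantigen and 1 red blood cell genes also gave 0.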

How the data were processed

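The members and gene lists were chosen with earlier results of these data known. The deposited table holds log2 intensities of 45101 probe sets on 30 arrays, with array medians between 5.487 and 5.537 and no missing value. The summarisation and normalization behind it are not given in the sources used here, and limma is named in the submitters' processing notes without a version. Values were used as the authors deposited them. The platform annotation gave 34958 probe sets 1 gene, 932 several and 9211 none, and 64 controls were left out. Of the probe sets with 1 gene, 34754 matched RefSeq by Entrez identifier, which also gave coordinates (GRCm38.p6).

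Genes above their array's median in at least 5 arrays were fitted with limma 3.58.1 in R 4.3.3, with 1 mean for each of the 6 groups, and p values were adjusted by Benjamini-Hochberg over all 12999 genes. The contrasts were week 24 minus week 8 in each treatment and their difference. Array measures were compared by exact permutation in SciPy 1.17.1 under Python 3.11.15. The rule for choosing genes took Cd40lg and Cd40, and the 12 largest rises and 12 largest falls past the threshold. It took up to 8 genes in each direction in the difference between treatments. From each list with at least 3 calls it took the 5 largest called changes, and from every other list the 2 largest changes. These came to 140, of which 2 kappa variable genes are counted without their names. A further 44 genes were chosen after their values were seen. Not all of these genes are given in the text, such as Nkg7, Ccl5 and Gbp2, which had no call. Same-numbered arrays did not deviate together, so replicate numbers were not treated as pairs. No 2 arrays were copies (highest correlation 0.9938). On simulated arrays with shifts of 0.5, 1 and 2 log2 units among 12999 genes, the age comparison in anti-CD40L glands recovered 46.3, 91 and 100% of the shifted genes with 5.39% false calls, and the difference between treatments 11.9, 77.6 and 100% with 4.55%. The simulated noise was independent, with 1 spread per gene for all groups. It held no difference in parotid content or RNA measure and no outlying arrays, so these shares do not carry over to the real arrays. Alternatives covered scaling, filters, probe set choice, covariates, array weights, a replicate block and left-out arrays.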

Additional observations from a re-analysis of the deposited data

Results flagged for a closer look

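Among 366 groups of 5 arrays checked for a single array far from the other four, 17 were marked (4.64%), against about 5% by chance. Week 8 replicate 1 was such an array for 6 genes. It was highest for Ttr, at 10.54 against 7.87 to 8.38 in the other arrays. It was lowest for Clock (6.02, others 7.15 to 7.52), Cd59a (9.87, others 10.04 to 10.09), Lgr4 (8.46, others 9.10 to 9.19), Clk1 (9.74, others 10.33 to 10.45) and Hspa5 (12.33, others 12.62 to 12.72). Week 8 replicate 5 was lowest for Jchain (6.72, others 7.30 to 7.45) and highest for the interferon genes Irgm2 (6.53, others 5.79 to 5.96) and Ifit1 (6.78, others 5.4 to 5.64). Week 24 replicate 2, an array of high Amy1, was lowest for Cftr (6.57, others 7.89 to 8.40), Klk1b24 (11.89, others 12.50 to 12.74), Klk1b11 (13.45, others 13.66 to 13.71) and Dnajb9 (10.66, others 11.02 to 11.11), and highest for Ndufc1 (11.85, others 11.68 to 11.72). Week 24 replicate 4 was highest for Dusp1 (10.69, others 7.91 to 8.61) and Birc3 (7.91, others 7.77 to 7.80), and week 24 replicate 3 for Postn (10.50, others 9.70 to 9.92).

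Prg2 stood out because its change with age differed between the treatments by -1.84 on the log2 scale in the test of the difference itself (adjusted p = 0.0302). The call was lost without any of 8 of the 10 anti-CD40L arrays (adjusted p up to 0.107) and under several other alternatives. Most anti-CD40L levels of Prg2 lay below the array medians, and it passed the filter through control arrays.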

How the results depend on the processing

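Of the alternatives, those that changed the anti-CD40L count of 3074 by more than 1.5 times were the 3' minus 5' difference as a covariate (633), Amy1 as a covariate (1412), both (594), the arrays of high Amy1 (401) and the week 8 arrays of low correlation left out (153). The last 3 of these were chosen after seeing the data. Leaving out 1 array gave 1381 to 3793 genes, the fewest without week 8 replicate 1 and 1516 without week 8 replicate 3. The control count of 1624 became 715 and 669 with the 3' minus 5' difference and both covariates, 41 in a fit of the compared arrays alone, and 721 to 3230 without 1 array. The difference between treatments gave 0 genes with both covariates, array weights, a stricter filter and the replicate block, 2 with Amy1, 3 with the median over probe sets and 0 to 9 without 1 array, against 1 as reported (759 at an unadjusted p under 0.05). The numbers of the arrays carried no pairing (same-number correlations -0.132 to 0.064 in anti-CD40L glands and -0.633 to 0.272 in control glands), and the replicate block gave 2974 and 1433 calls. Without 1 array the 3' minus 5' difference stayed between -0.197 and -0.132 (exact permutation p = 0.0159) and that of Amy1 between -3.74 and -2.22 (exact permutation p 0.0159 to 0.0794). Directions turned for Ltf (main -0.70), at 1.65 in the arrays of high Amy1, 0.11 without week 24 replicate 1 and 0.26 without replicate 4, with -1.30 its lowest value without 1 array. With the median over probe sets Rora came to -0.24, Plagl1 to -0.01 and Stom to 0.11. With the 3' minus 5' difference, and with both covariates, Fabp4 came to 0.06 and 0.11, Hspb1 to -0.052 in both and Sptan1 to -0.046 and -0.021. Ms4a1 came to 0.058 with both covariates and Cd79a to 0.011 in the arrays of high Amy1. The causes were not tested. Of 134 calls among the genes chosen by the rule or after their values were seen, 74 held without any 1 array. The other 60 did not, 52 of them without week 8 replicate 1.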
